A study of Mus musculus with 3 samples.

Results

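The genes described here encode enzymes that add or remove methyl and acetyl groups on the lysines of histones, the proteins around which DNA is wound. They were chosen by gene symbol (Kmt, Kdm, Setd, Hdac, Kat and Ezh families with Ep300, Crebbp, Nsd1 and Dot1l). The symbol rule itself takes no measured value, but the set was chosen with earlier results of these data known. Of 64 annotated genes whose symbol matched, 5 had no protein-coding transcript (Kat2b-ps, Kat6b-ps1, Kat6b-ps2, Kdm4dl and Kdm6bos) and 5 lie on the sex chromosomes (Hdac6, Hdac8, Kdm5c, Kdm5d and Kdm6a). The remaining 54 genes, of 55536 annotated genes in all, comprised 20 methyltransferases, 15 demethylases, 10 acetyltransferases and 9 deacetylases on 19 chromosomes. The symbol does not always describe the enzyme. Kmt2e has a SET domain for which no histone methyltransferase activity is established, and Setd3 is known as a histidine methyltransferase of actin.

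Methyl groups on histone lysines are bound by reader proteins and mark active genes (H3K4, H3K36, H3K79) or silenced genes (H3K9, H3K27, H4K20), depending on the lysine. Acetyl groups weaken the contact between histone tails and DNA and accompany active promoters and enhancers. In macrophages, histone acetylation and H3K4 methylation at inflammatory genes change on exposure to bacterial products, and Hdac3 and Kdm6b are among the enzymes studied in that setting.

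The RNA came from the chromatin fraction of bone-marrow-derived macrophages of C57BL/6J mice, was depleted of ribosomal RNA and was sequenced as total RNA. RNA of this fraction includes transcripts that are still being made and spliced. All libraries belonged to a single group: primary cells given 100 ng/ml of Lipid A, the TLR4-activating moiety of bacterial lipopolysaccharide, for 12 h, kept without it for 12 h, and given 100 ng/ml again for 15 min. No untreated or once-treated cells were analysed here, so no value below shows an effect of Lipid A. The 3 libraries are numbered as biological replicates but carry 1 donor identifier, so the spread between them may be technical. Sex and age are not recorded. In a bulk preparation, fewer cells of a type and less RNA per cell cannot be told apart.

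The libraries held 14609979, 17423948 and 24162551 expected counts in replicates 1, 2 and 3, from 1000, 250 and 500 ng of RNA, and 1.24, 0.482 and 0.228% of these counts fell in rows of no annotated gene. All 8 macrophage markers (Adgre1, Csf1r, Cd68, Lyz2, Spi1, Itgam, Mertk and Fcgr1) reached at least 1 TPM, with a summed level of 869 to 978 TPM. The summed level was 0.07 to 0.19 TPM for 3 T cell markers, 0.09 to 0.14 TPM for 3 B cell markers, 0.27 to 0.65 TPM for 4 neutrophil markers and 0.01 to 0.96 TPM for 4 fibroblast markers. It was 1.62 to 1.82 TPM for 3 dendritic cell markers, of which Zbtb46 made up 1.58 TPM on average, at most 0.45 TPM for 2 erythroid markers, and 0 for 2 markers of mast cells or basophils. In the read-based quantification, which assigns reads to transcripts without the alignment step, these sums were higher for most lists: 1147 to 1347 TPM for macrophages, 4.08 to 4.35 TPM for T cells, 0.09 to 0.48 TPM for B cells, 1.97 to 2.35 TPM for neutrophils and 2.06 to 3.87 TPM for fibroblasts. They were 3.78 to 4.37 TPM for dendritic cells, at most 0.20 TPM for erythroid cells and 0.37 to 0.74 TPM for mast cells or basophils.

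Nearly the whole set of enzyme genes carried RNA on chromatin. A mean expected count of at least 10 was reached by 53 of the 54 genes, against 54.7% of the 20757 autosomal genes with a protein-coding transcript. A mean of at least 1 TPM, a length-scaled share of the transcripts in a library, was reached by 52 against 49.7%, and at least 10 TPM by 45 against 27.3%. The median over the 54 genes of log2(TPM + 1) was 4.92, 4.86 and 4.93 in replicates 1, 2 and 3 (4.90 ± 0.04, SD, n = 3). Over all detected genes it was 3.45 ± 0.03. The median of the mean levels was 30.1 TPM for the 54 genes, and 21 of them lay at or above the 90th percentile of the autosomal protein-coding genes. No test was made of these levels, since the design holds no second group.

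By role, methyltransferase genes had the highest median level and deacetylase genes the lowest. The median of log2(TPM + 1) was 5.51, 5.72 and 5.64 for methyltransferases, 5.09, 4.81 and 4.93 for demethylases, 4.60, 4.53 and 4.37 for acetyltransferases and 3.45, 3.62 and 3.54 for deacetylases in replicates 1, 2 and 3. The order was the same in each of the 3 libraries. A mean of at least 50 TPM was reached by 10 of 20 methyltransferase genes, 4 of 15 demethylase genes, 1 of 10 acetyltransferase genes and 0 of 9 deacetylase genes. The share of all genes at 50 TPM was not computed. At least 10 TPM was reached by 18, 10, 10 and 7 genes of these groups, against 27.3% of autosomal genes with a protein-coding transcript. In the read-based quantification, methyltransferases were again highest (5.77 ± 0.05, n = 3) and deacetylases lowest (3.71 ± 0.03, n = 3). Demethylases (5.20 ± 0.16) and acetyltransferases (5.32 ± 0.09) were there in the other order on average, and the order of these 2 groups was not the same in every library.

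**Figure D1:**
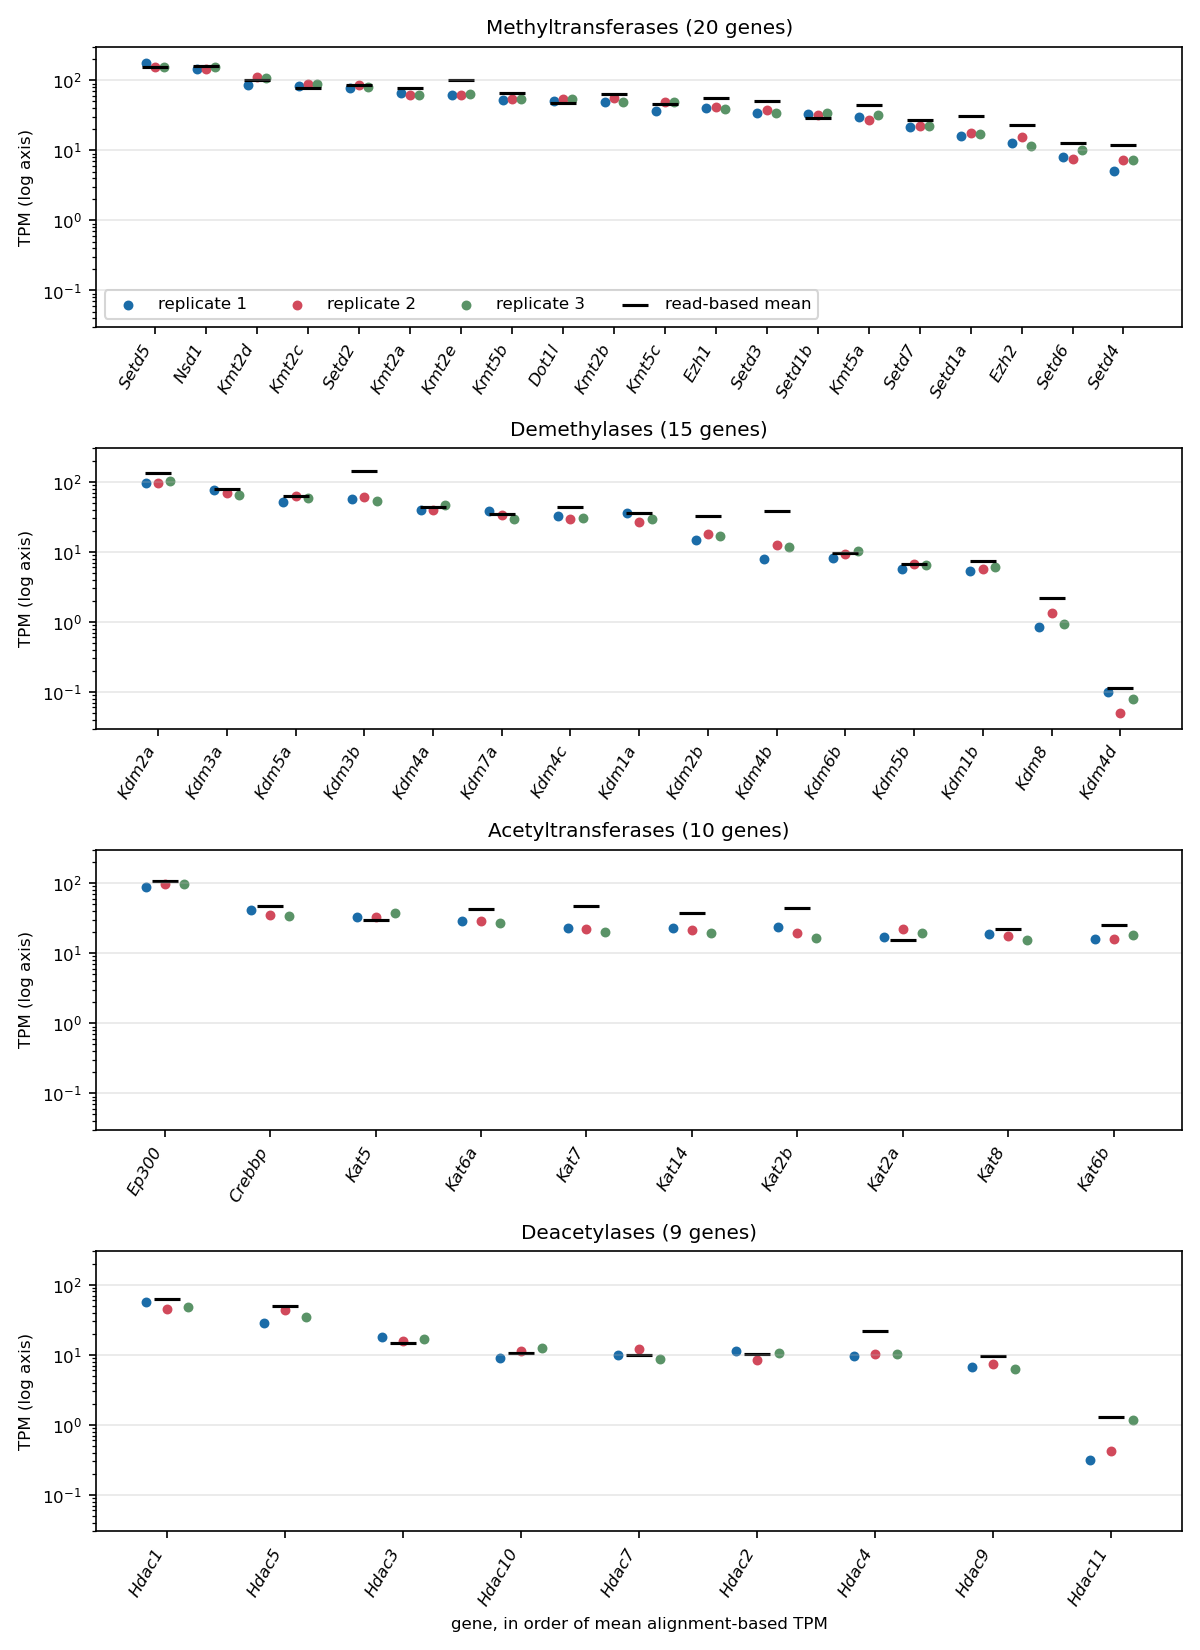
Level of each of the 54 enzyme genes (TPM, log axis) in 4 panels by role, with 1 coloured point for each library and a black bar for the mean of the read-based table. Setd5 and Nsd1 stand highest among methyltransferases, at 161 and 148 TPM, and the means of Kdm4d and Hdac11 are 0.08 and 0.64 TPM.

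Among the methyltransferases, Setd5 had the highest level of all 54 genes. Setd5 (ENSMUSG00000034269.12, chr6:113077365-113153435, plus strand, mm10) encodes a SET domain protein whose catalytic activity on histones is disputed, and it had 175, 154 and 155 TPM in replicates 1, 2 and 3. Nsd1 (ENSMUSG00000021488.8, chr13:55209782-55318325, plus strand) encodes an H3K36 dimethyltransferase and had 144, 148 and 153 TPM. The mean was 161 ± 11.7 TPM for Setd5 and 148 ± 4.65 TPM for Nsd1 (SD, n = 3), and their values did not overlap between the genes, with the lowest Setd5 library only just above the highest Nsd1 library. In the read-based table the order was the opposite, with 157 ± 12.8 TPM for Setd5 and 162 ± 4.84 TPM for Nsd1, so these neighbours did not differ beyond their spread there. Setd2, which trimethylates H3K36 behind elongating RNA polymerase II, had 78.5, 85.6 and 80.8 TPM. These 2 H3K36 enzymes ranked 2nd and 7th of the 54 genes.

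The genes for H3K4 methylation were all above the median of detected genes, 9.96 TPM. Kmt2d (ENSMUSG00000048154.17, chr15:98831669-98871204, minus strand) and Kmt2c, which monomethylate H3K4 at enhancers, had 85.0, 112 and 108 TPM and 82.3, 88.1 and 87.6 TPM. Kmt2d was lowest in replicate 1, the only library in which it came within 3 TPM of Kmt2c. Kmt2a, the homologue of fly Trithorax that is rearranged in leukaemia, had 65.3, 61.7 and 62.9 TPM, and its paralog Kmt2b had 49.5, 56.0 and 49.3 TPM. Kmt2e had 62.7, 61.4 and 64.2 TPM. Setd1b had 33.1, 31.7 and 33.7 TPM and Setd1a, the other catalytic subunit of the COMPASS complexes that trimethylate H3K4, had 15.9, 17.9 and 17.01 TPM. Setd7, which monomethylates H3K4 and non-histone proteins, had 21.8 ± 0.39 TPM (SD, n = 3).

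Among the writers of H3K27 and H4K20 methylation, Ezh1, Kmt5b and Kmt5c lay near the methyltransferase median of 48.2 TPM and Ezh2 below it. Ezh1 and Ezh2 are the alternative catalytic subunits of Polycomb repressive complex 2, which methylates H3K27. Ezh1 had 40.2, 42.1 and 38.6 TPM and Ezh2, the form known for dividing cells, had 12.7, 15.4 and 11.5 TPM. Each library thus held more Ezh1 than Ezh2 RNA. Kmt5b and Kmt5c, which add the further methyl groups to H4K20, had 51.7, 54.5 and 54.1 TPM and 36.6, 49.0 and 48.7 TPM, whereas Kmt5a, which adds the first, had 29.5 ± 2.35 TPM (n = 3). Dot1l, the H3K79 methyltransferase, had 51.1, 54.5 and 54.2 TPM. The other Setd genes had mean levels of 35.3 TPM (Setd3), 8.52 TPM (Setd6, which methylates the NF-kB subunit RelA) and 6.61 TPM (Setd4).

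Demethylase genes ranged from Kdm2a at 98.1 TPM to Kdm4d at 0.08 TPM on average. Kdm2a (ENSMUSG00000054611.17, chr19:4314419-4398285, minus strand), an H3K36 demethylase that binds unmethylated CpG islands, had 95.1, 97.6 and 101 TPM. Its paralog Kdm2b, which also recruits a Polycomb complex, had 14.6, 17.8 and 16.9 TPM. For H3K9 demethylation, Kdm3a had 75.6, 69.4 and 64.1 TPM and Kdm3b had 56.7, 61.1 and 53.2 TPM. The lowest Kdm3a library lay above the highest Kdm3b library, but this order depended on the quantification, as given below.

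The enzymes Kdm4a, Kdm4b and Kdm4c remove trimethylation from H3K9 and H3K36. Kdm4a had 39.1, 39.5 and 46.3 TPM, Kdm4c had 33.0, 29.3 and 30.7 TPM, and Kdm4b had 7.78, 12.4 and 11.9 TPM. Kdm4d, known mainly from testis, had expected counts of 3, 2 and 4 and was the 1 gene that missed the count of 10. At this depth its level (0.10, 0.05 and 0.08 TPM) could not be measured with any precision. Kdm5a and Kdm5b, demethylases of H3K4me3, were far apart. Kdm5a had 52.2, 62.2 and 57.9 TPM and Kdm5b had 5.72, 6.70 and 6.51 TPM.

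Kdm1a, the flavin-dependent H3K4 demethylase LSD1, had 35.4, 27.0 and 29.5 TPM, and its paralog Kdm1b had 5.38, 5.76 and 6.13 TPM. Kdm6b, the H3K27 demethylase JMJD3 that is known as inducible by lipopolysaccharide in macrophages, had 8.19, 9.35 and 10.2 TPM. This was the 46th level of the 54 genes, and the read-based mean of 9.67 ± 1.83 TPM was close to it. Kdm7a, a demethylase of H3K9 and H3K27 dimethylation, had 33.7 ± 4.37 TPM (n = 3). Kdm8, whose histone demethylase activity is disputed, had 0.84, 1.34 and 0.92 TPM, from expected counts of 23, 45 and 39.

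All 10 acetyltransferase genes had mean levels of at least 10 TPM. Apart from Ep300, the means ran from 16.9 TPM (Kat6b) to 37.0 TPM (Crebbp). In the read-based table they ran from 15.7 TPM (Kat2a) to 47.6 TPM (Crebbp). Ep300 (ENSMUSG00000055024.12, chr15:81585351-81652077, plus strand), which encodes the coactivator p300, had 88.1, 99.1 and 96.6 TPM. Its paralog Crebbp, the CREB-binding protein, had 41.9, 35.4 and 33.7 TPM, below Ep300 in each library. Kat5 (Tip60), Kat6a (MOZ) and Kat6b (MORF), enzymes of the MYST family, had mean levels of 34.6 ± 2.99, 28.2 ± 1.06 and 16.9 ± 1.34 TPM. The MYST members Kat7 (HBO1) and Kat8 (MOF, the H4K16 acetyltransferase) had 21.7 ± 1.48 and 17.3 ± 1.52 TPM (SD, n = 3). Kat2a (GCN5) had 17.4, 22.0 and 19.2 TPM and its paralog Kat2b (PCAF) had 23.4, 19.5 and 16.7 TPM, so these values overlapped. Kat14, a subunit of the ATAC complex, had 21.4 ± 1.97 TPM.

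Among deacetylases, Hdac1 was highest and Hdac11 lowest. Hdac1 (ENSMUSG00000028800.15, chr4:129516104-129542713, minus strand) and Hdac2 are interchangeable subunits of the Sin3, NuRD and CoREST complexes. Hdac1 had 55.8, 45.3 and 47.7 TPM, whereas Hdac2 had 11.3, 8.34 and 10.7 TPM. Hdac3, the enzyme of the NCoR and SMRT corepressors, had 17.7, 15.5 and 16.5 TPM. Of the class IIa deacetylases, which shuttle between nucleus and cytoplasm, Hdac5 had 28.6, 43.9 and 34.8 TPM. Hdac4 had 9.46, 10.3 and 10.4 TPM, Hdac7 had 9.94, 12.2 and 8.72 TPM, and Hdac9 had 6.59, 7.40 and 6.35 TPM. Hdac10, known as a deacetylase of polyamines, had 11.0 ± 1.72 TPM (n = 3). Hdac11 had 0.31, 0.42 and 1.18 TPM from expected counts of 4.25, 12.4 and 28.7, and 17.9% of its exon bases overlap genes on the other strand.

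The replicates lay close together for these genes. The median SD of log2(TPM + 1) over the libraries was 0.113 for the 53 detected members and 0.158 for all 11362 detected genes. Without replicate 1 these were 0.0727 and 0.112, without replicate 2 they were 0.102 and 0.126, and without replicate 3 they were 0.106 and 0.150. Among genes with a mean count of at least 100 it was 0.106 for 51 members and 0.150 for 8188 genes. The members' levels were also higher than those of detected genes as a whole (medians of 30.6 and 9.96 TPM), and the part of level in this difference was not tested. The median biological coefficient of variation, the spread beyond counting error in an edgeR fit of 15879 genes, was 0.125 for the members and 0.146 for autosomal protein-coding genes. The fit draws these values towards a trend with level, and no median was computed for genes of like level. This difference therefore cannot be separated from the difference in level. The highest library exceeded the lowest by more than 1.5 times in 2 of the 51 members, Kdm4b and Hdac5, against 17.1% of all genes at that count. In 32 of the 51 the highest and lowest library lay within 1.2 times of each other, against 40.5% of all genes at that count, and in 13 within 1.1 times, against 14.7%.

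**Figure D2:**
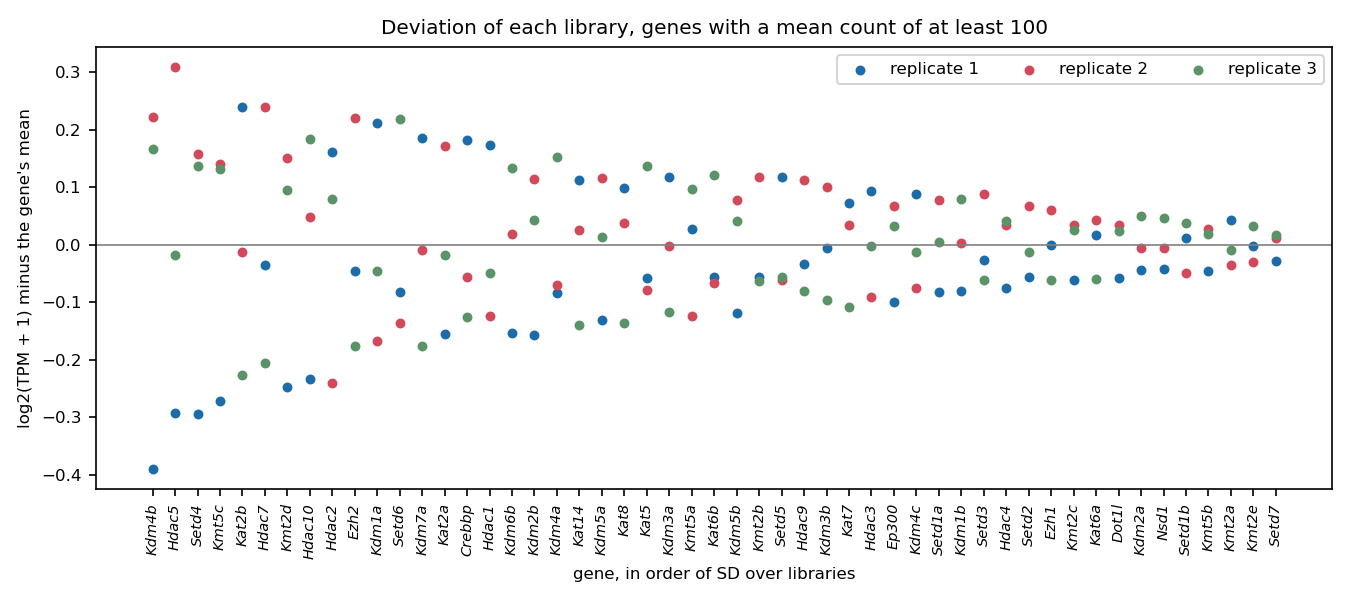
Deviation of each library from the gene's mean on the log2(TPM + 1) scale for the 51 enzyme genes with a mean count of at least 100, ordered from the largest SD to the smallest, with 1 colour for each library. Kdm4b, Hdac5, Setd4 and Kmt5c were lowest in replicate 1, and Kat2b was highest there.

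The 5 members with the largest SD at that count were Kdm4b, Hdac5, Setd4, Kmt5c and Kat2b. Setd4 had 5.14, 7.41 and 7.28 TPM, and like Kdm4b, Hdac5 and Kmt5c it was lowest in replicate 1, the library with the fewest counts and the most RNA at the start. Kat2b was highest in that library. Over the 53 detected members, 25 were lowest in replicate 1, 13 in replicate 2 and 15 in replicate 3, against 37.5%, 39.2% and 23.3% of all detected genes.

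A tendency for the members to peak in replicate 2 depended on the table. In the alignment-based values their share exceeded that of all detected genes under each scaling given here, and its size changed with the scaling. It did not exceed it in the read-based table. The highest TPM was in replicate 1 for 14 members, in replicate 2 for 24 and in replicate 3 for 15, against 36.6%, 29.6% and 33.8% of all detected genes. With TMM-scaled counts the numbers were 11, 30 and 12, against 32.1%, 36.3% and 31.6%. With TPM rescaled over genes with a protein-coding transcript they were 9, 34 and 10, against 23.7%, 42.5% and 33.8%. In the read-based table they were 24, 17 and 12, against 36.8%, 33.1% and 30.2% of all detected genes. Each replicate is a single library, and no test of one library against the others was possible.

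Paralogs were compared within libraries, as the difference of log2(TPM + 1) between the first and the second gene of 17 pairs. In 16 pairs the difference had the same sign in all 3 libraries, and in 15 pairs it did so in the read-based table. In 12 pairs it had that same sign in both. No such count was made for other pairs of genes, so these numbers cannot be set against a background. An exact sign-flip test over 3 libraries cannot give a p below 0.25, so no p-value is given. The largest differences were in demethylases and deacetylases. Kdm5a exceeded Kdm5b by 3.00 ± 0.04 (SD, n = 3), Kdm2a exceeded Kdm2b by 2.51 ± 0.12, Kdm1a exceeded Kdm1b by 2.22 ± 0.26 and Hdac1 exceeded Hdac2 by 2.19 ± 0.12. The read-based differences were 3.06, 2.01, 2.12 and 2.50. For these 4 pairs the difference was many times its SD in both tables, and protein-coding transcripts alone kept the sign, at 1.72, 2.36, 0.72 and 1.19.

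**Figure D3:**
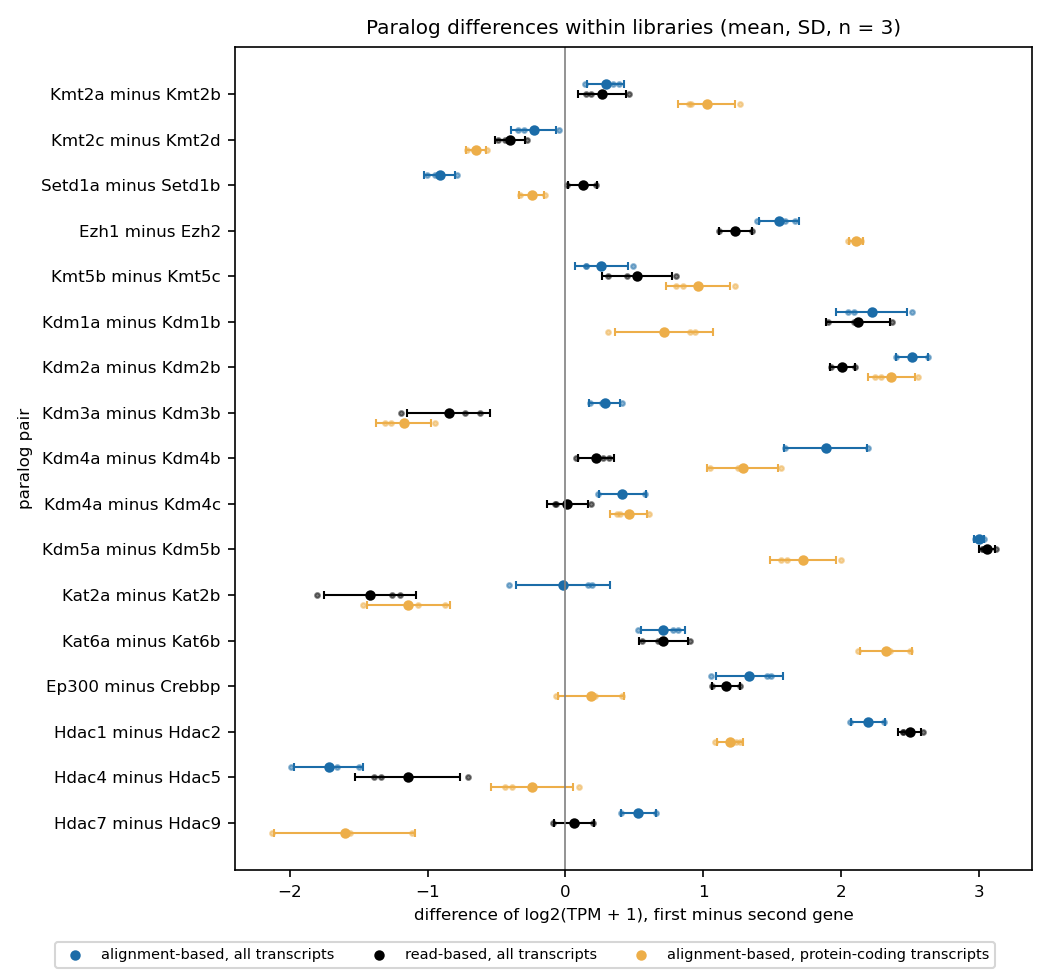
Difference of log2(TPM + 1) between the genes of 17 paralog pairs, first minus second, as means (large points) with SD bars over 3 libraries (small points), for the alignment-based table, the read-based table and the protein-coding transcripts of the alignment-based table. Kdm5a minus Kdm5b lies near 3.00 in both tables, whereas Kdm3a minus Kdm3b and Setd1a minus Setd1b lie on opposite sides of 0.

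Ezh1 exceeded Ezh2 by 1.55 ± 0.14 (1.23 read-based, 2.11 in coding transcripts), and Ep300 exceeded Crebbp by 1.33 ± 0.24 (1.16 read-based). In protein-coding transcripts alone, the Ep300 and Crebbp difference was 0.19 ± 0.24 and had 1 sign in only 2 of 3 libraries. Hdac5 exceeded Hdac4 in all transcripts, with a difference of -1.72 ± 0.25 for Hdac4 minus Hdac5. This also shrank to -0.24 ± 0.30 in coding transcripts. Kat6a exceeded Kat6b by 0.71 ± 0.16 in all transcripts and by 2.33 ± 0.19 in coding ones. Kmt2a minus Kmt2b (0.29 ± 0.14), Kmt2c minus Kmt2d (-0.23 ± 0.16) and Kmt5b minus Kmt5c (0.26 ± 0.20) were small, and each kept its sign in the read-based table.

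In 5 pairs the order was not the same in both tables. Setd1a minus Setd1b was -0.91 ± 0.11 in the alignment-based and 0.12 ± 0.11 in the read-based table. Of the Setd1a exon bases, 51.8% are shared on the same strand with Gm49388, another gene annotated as protein coding and listed at 0.06 TPM. Kdm3a minus Kdm3b was 0.28 ± 0.11 and -0.85 ± 0.30, and it was 0.53 ± 0.15 in the read-based table without transcripts under 200 bases. Kat2a minus Kat2b was -0.02 ± 0.34, with both signs among the libraries (0.18 without replicate 1), and -1.42 ± 0.33 in the read-based table. Kdm4a minus Kdm4c (0.41 ± 0.17 against 0.01 ± 0.15) and Hdac7 minus Hdac9 (0.53 ± 0.13 against 0.06 ± 0.15) had both signs among the read-based libraries. Kdm4a minus Kdm4b kept its sign but was 1.89 ± 0.30 in the alignment-based and 0.22 ± 0.13 in the read-based table, and 1.61 ± 0.21 in the latter without transcripts under 200 bases.

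Members differed strongly in the annotated type of their transcripts. GENCODE labels a transcript as retained intron where it keeps an intron that a coding transcript of the gene removes, as a processed transcript where it has no open reading frame, and as a target of nonsense-mediated decay where its stop codon lies early. For the 52 members of at least 1 TPM, the median share of TPM in such non-coding transcripts was 46.4 ± 2.9% (48.1, 48.1 and 43.1% in replicates 1, 2 and 3), and it was 43.4 ± 1.5% for all genes of that level. More than 50% of the TPM was non-coding in 23 of the 52 members, against 42.9% of all genes, which is close to the members' own 44.2%. In the read-based table the medians were 60.9 ± 1.6% and 51.9 ± 0.7%, and 33 of the 52 members were over 50% against 52.0% of all genes. Counted in expected counts in place of TPM, the members' median share was 20.4 ± 1.2%, a measure that does not divide by transcript length as TPM does. This share was not computed for all genes, so the members cannot be set against the background on it.

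By role, the median non-coding share was 47.3% for methyltransferases, 37.9% for demethylases, 43.8% for acetyltransferases and 65.0% for deacetylases. The read-based shares were 57.9, 57.6, 63.1 and 68.6%. Hdac7 had the largest share, 87.5, 80.1 and 95.0% in replicates 1, 2 and 3. Setd5 followed with 80.6, 78.9 and 78.5%, Hdac5 with 79.9, 78.2 and 76.0%, Kdm5a with 77.4, 76.9 and 78.7% and Hdac10 with 75.1, 71.7 and 80.0%. Their read-based means were between 75.3% (Hdac10) and 88.1% (Hdac5). These 5 genes thus had most of their TPM in transcripts not labelled protein coding in both tables. Their shares of expected counts are not given here. At the other end, Kmt2d had 1.53 ± 1.42% and 12.1 ± 3.93% in the alignment-based and read-based tables. Hdac9 had 14.7 ± 1.83% and 9.82 ± 1.52%, and Crebbp had 18.5 ± 4.01% and 17.3 ± 1.49%. Kdm8 has no annotated non-coding transcript, so its share was 0% by definition.

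**Figure D4:**
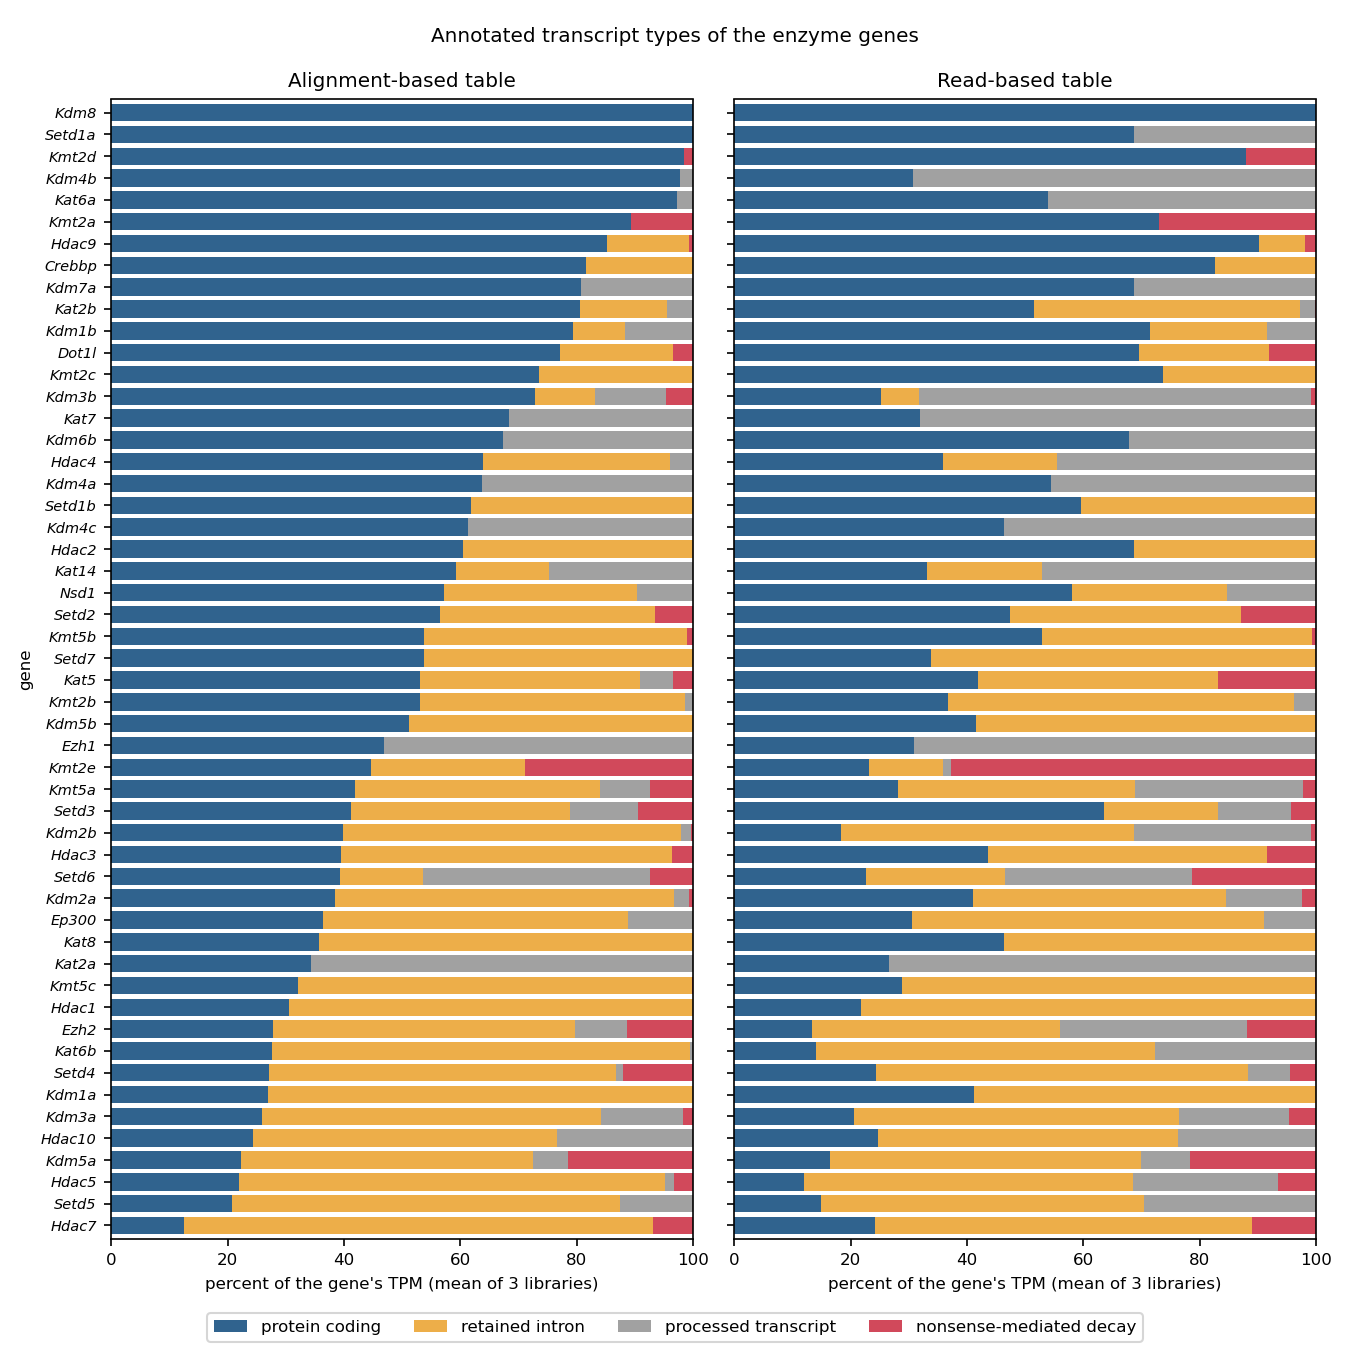
Percent of each gene's TPM in annotated transcript types (mean of 3 libraries) for the 52 enzyme genes of at least 1 TPM, in the alignment-based table (left) and the read-based table (right), both in the order of the alignment-based protein-coding share. Hdac7 and Setd5 have the smallest protein-coding shares on the left, and Kdm4b and Kat6a have a far larger non-coding share on the right.

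Retained-intron transcripts held a median of 35.7 ± 1.2% of the TPM over the 52 members and 25.6 ± 1.1% over all genes of that level. Over the same members, processed transcripts held a median of 1.78% and targets of nonsense-mediated decay 0%. At least 1 retained-intron transcript is annotated for 39 of the 52 members, against 62.1% of all genes of that level. In the 39 members such transcripts held a median of 45.7 ± 1.9% of the TPM, and in the 6408 genes that have one they held 46.9 ± 1.2%. They held more than 50% in 17 of the 39 members against 44.6% of such genes, so the members were near the background. The read-based median was 45.4 ± 2.5% for these members and 45.4 ± 0.6% for the 6408 genes. Of the members, 14 were over 50% in both tables, a count that was not made for all genes. The other types were large in single genes. Transcripts subject to nonsense-mediated decay held 28.9% of Kmt2e and 21.5% of Kdm5a, and processed transcripts held 65.6% of Kat2a, 53.1% of Ezh1 and 38.6% of Kdm4c.

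The sequences below show the introns kept in single retained-intron transcripts of 5 members. They come from Setd5, Kmt2e, Ep300, Hdac1 and Dot1l, the 5 members with the highest level of a single transcript that keeps an intron between coding exons, and are the first such intron of that transcript. Bases are given 5′ to 3′ on the gene's strand from mm10, with the intron in capitals and 20 bases of the flanking exons in lower case. Introns of up to 150 bases are whole, and of longer ones the first and last 40 bases are given.
Setd5-204 donor, chr6:113109971-113110030, plus strand: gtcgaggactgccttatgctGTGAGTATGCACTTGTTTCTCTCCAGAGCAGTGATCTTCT
Setd5-204 acceptor, chr6:113110277-113110336, plus strand: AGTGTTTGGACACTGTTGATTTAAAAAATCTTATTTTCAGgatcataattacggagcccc
Kmt2e-208 donor, chr5:23493488-23493547, plus strand: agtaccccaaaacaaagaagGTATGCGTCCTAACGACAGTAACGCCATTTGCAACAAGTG
Kmt2e-208 acceptor, chr5:23495946-23496005, plus strand: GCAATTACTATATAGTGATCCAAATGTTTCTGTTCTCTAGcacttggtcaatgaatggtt
Ep300-204 whole intron, chr15:81639872-81640014, plus strand: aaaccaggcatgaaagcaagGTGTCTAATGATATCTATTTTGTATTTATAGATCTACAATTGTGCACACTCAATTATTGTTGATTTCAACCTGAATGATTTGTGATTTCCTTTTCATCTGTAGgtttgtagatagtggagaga
Hdac1-206 donor, chr4:129516860-129516919, minus strand: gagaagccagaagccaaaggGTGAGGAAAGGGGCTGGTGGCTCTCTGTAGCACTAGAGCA
Hdac1-206 acceptor, chr4:129516617-129516676, minus strand: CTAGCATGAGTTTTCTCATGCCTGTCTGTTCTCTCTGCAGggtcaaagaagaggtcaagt
Dot1l-207 whole intron, chr10:80786247-80786373, plus strand: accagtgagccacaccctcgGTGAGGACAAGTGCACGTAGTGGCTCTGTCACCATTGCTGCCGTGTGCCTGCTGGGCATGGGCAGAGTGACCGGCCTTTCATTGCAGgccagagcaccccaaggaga

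All 5 introns begin with GT and end with AG, as introns of the major spliceosome do, and they are 326, 2478, 103, 263 and 87 bases long in that order. Setd5-204 had 26.9, 24.6 and 22.8 TPM in replicates 1, 2 and 3, close to the 26.9 ± 1.8 TPM of the most abundant coding transcript of the gene, Setd5-202. Kmt2e-208 had 17.5, 15.2 and 17.1 TPM and Ep300-204 had 13.3, 12.3 and 11.1 TPM, each with an SD under 2 TPM. Hdac1-206 varied more, with 11.5, 5.39 and 10.9 TPM from expected counts of 91.0, 49.96 and 129. Dot1l-207 had 6.95, 7.47 and 7.10 TPM. The read-based means of the 5 transcripts were 19.9, 13.0, 10.6, 10.3 and 4.53 TPM, which keeps their order. A count for such a transcript can come from any read inside it, intron or exon, and the share of reads that cross an exon-intron junction was not measured here.

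The longest annotated coding transcript was often a small part of a member's TPM. It held a median of 27.5% of the TPM, under 10% in 13 members and over 50% in 11. No such share was computed for all genes, so the members cannot be set against a background on it. The longest coding transcript is also not always the main one. In the alignment-based table, Ezh1-202 had 0 TPM in each library, whereas the shorter coding transcript Ezh1-201 had a mean of 9.83 TPM. Nsd1-201, a coding transcript of 12784 bases, had 51.6 ± 2.0 of the 148 TPM of Nsd1 but 7980, 9856 and 13430 expected counts, most of the gene's counts. Kmt2d-201, of 19823 bases, had 64.8 ± 6.2 TPM, and Setd2-201, of 8350 bases, had 40.7 ± 1.4 TPM. Kmt2e-201 had 20.9 ± 1.8 TPM in the alignment-based and 2.74 ± 0.31 TPM in the read-based table, and Ezh1-203 had 9.05 ± 0.58 and 0.01 ± 0.02 TPM. The division of reads among transcripts of these genes thus differed between the tables by more than the replicate spread.

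The members had a median of 8 annotated transcripts, from 2 to 21, against 4 for all autosomal protein-coding genes. Their median span on the genome was 44.8 kb, from 3.13 kb (Setd6) to 869.5 kb (Hdac9), against 17.6 kb. Some lie near each other. Setd1a and Kat8 are 112 kb apart on chromosome 7, Kdm2b and Setd1b 152 kb apart on chromosome 5, Kat2a and Ezh1 479 kb apart on chromosome 11, and Kmt5b and Kdm2a 496 kb apart on chromosome 19. Exons on the opposite strand overlap more than 10% of the exon bases of 4 members: Kdm3b (24.6%, with Gm26538 at 12.1 TPM), Hdac4 (22.4%), Hdac11 and Kat5 (12.1%, with Rnaseh2c at 4.52 TPM). Kmt2e shares 9.31% with Srpk2 (55.9 TPM) and Kdm1b 9.19% with Dek (40.7 TPM). Whether reads were counted by strand is not stated, and reads of such a pair could then not be told apart.

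Both quantifications ranked the members much alike. Spearman's rho across the 54 genes was 0.953, a description across genes of the same libraries, and it was 0.941 across the 11362 detected genes. Of the 10 highest members, 9 were the same in both tables. The read-based value was the higher one for 45 members, with a median ratio of 1.27. Among detected genes it was higher for 44 of 53 members against 78.1% of all genes, and exceeded the other by more than 1.5 times in 17 members against 37.7%. The median ratio of all detected genes was 1.31. Kdm4b stood furthest apart, with 10.7 ± 2.5 TPM in the alignment-based and 37.9 ± 3.2 TPM in the read-based table, followed by Kdm3b with 57.0 ± 4.0 and 143 ± 27.6 TPM.

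**Figure D5:**
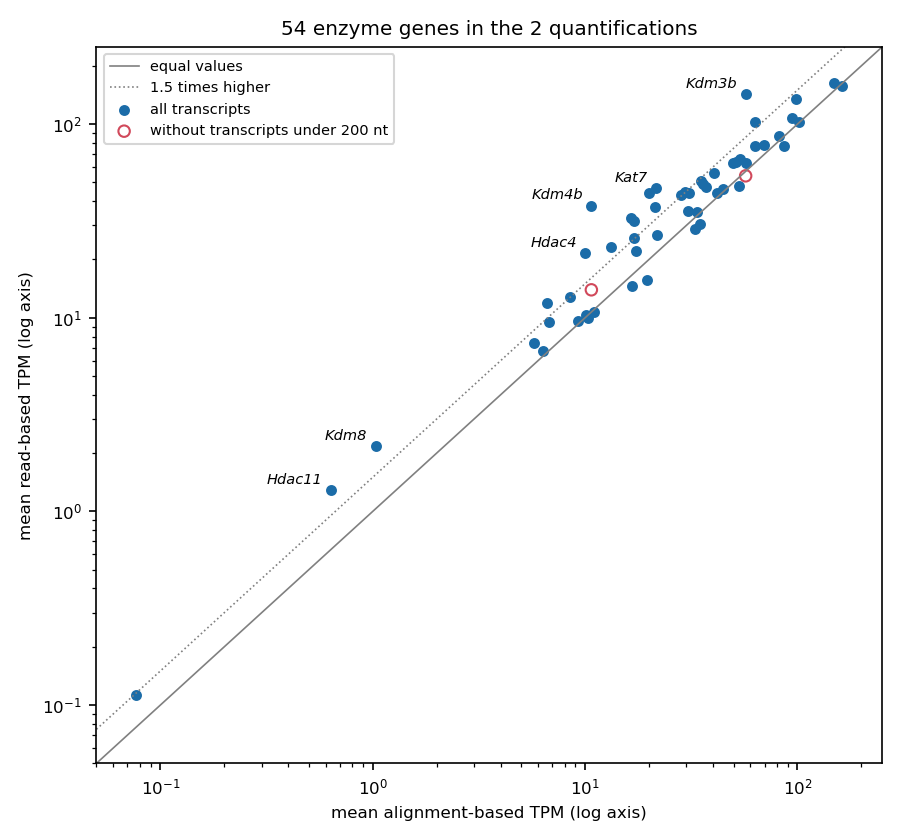
Mean read-based TPM against mean alignment-based TPM of the 54 enzyme genes (log axes), with a solid line at equal values and a dotted line at 1.5 times higher. Open circles give Kdm3b and Kdm4b without transcripts under 200 bases, at 54.03 and 13.9 TPM. These are 0.948 and 1.30 times the alignment-based means, so only Kdm3b lies close to the line of equal values.

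In Kdm3b and Kdm4b, a very short annotated transcript held most of the read-based TPM. Kdm3b-203, a processed transcript of 42 bases, received 13, 26 and 21 estimated counts of the 4250, 6543 and 7085 for the gene, which gave 77.8, 116 and 73.4 TPM. Kdm4b-206 is a processed transcript of 130 bases in 2 exons (chr17:56393517-56393785, plus strand), of which 68 bases lie in coding exons of other transcripts. It is shown whole because it held 23.9 of the 37.9 TPM of the gene in the read-based table.
Kdm4b-206: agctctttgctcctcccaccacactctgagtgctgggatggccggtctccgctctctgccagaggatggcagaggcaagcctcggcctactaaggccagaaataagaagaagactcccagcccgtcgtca

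Kdm4b-206 had 12, 11 and 16 estimated counts of 485, 839 and 927 for the gene, which gave 29.5, 19.8 and 22.5 TPM. Both short transcripts had an expected count of 0 in each library in the alignment-based table. Without transcripts under 200 bases, the read-based mean was 54.03 TPM for Kdm3b and 13.9 TPM for Kdm4b, 0.948 and 1.30 times the alignment-based mean. A longer example was Kat6a-203, a processed transcript of 419 bases with 19.9 ± 4.5 read-based and 0.79 ± 1.05 alignment-based TPM, and the non-coding share of Kat6a was 46.0% and 2.75% accordingly. Kat2b-205, a retained-intron transcript of 450 bases, had 14.1 ± 6.0 read-based TPM and 5.0, 2.68 and 0.36 alignment-based TPM. Both values of this transcript thus varied widely between libraries.

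Partner genes outside the symbol rule were present at like levels. Of 42 listed subunits, readers and further enzymes, 42 were detected and 41 had at least 1 TPM. Over autosomal genes with a protein-coding transcript these shares were 54.7% and 49.7%. The median of the listed genes was 29.6 TPM, with a range from 0.97 TPM (Phf19, a Polycomb accessory subunit) to 217 TPM. The highest was Brd2, a reader of acetylated histones, with 252, 202 and 196 TPM. Ncor1, the corepressor that activates Hdac3, had 215, 205 and 214 TPM, more than 10 times the level of Hdac3 in each library. Jmjd1c, a relative of Kdm3a and Kdm3b, had 181, 179 and 209 TPM. Of the Polycomb subunits, Eed had 86.9 ± 3.0 TPM and Suz12 27.7 ± 3.0 TPM, both above Ezh2. Ehmt2 (G9a) and Nsd3, methyltransferases whose symbols the rule does not take, had 149 ± 11.6 and 156 ± 15.8 TPM, within the range of the highest members.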

How the data were processed

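Total RNA of the chromatin fraction was measured in 3 libraries of 1 group. Per the README files and file headers, the authors used mm10 and GENCODE M21, and deposited expected counts and TPM per gene and per transcript from alignments, and estimated counts and TPM per transcript directly from the reads. Tools, versions and strand use are not given in the sources used here. Read-based transcripts were summed per gene. Detection was a mean expected count of at least 10, and levels are log2(TPM + 1), a scale that understates differences at low values. Total counts limited precision, and each SD covers these 3 samples only.

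Expected counts were rounded for edgeR 4.0.16 (TMM, intercept only, tagwise dispersion) and DESeq2 1.42.0 size factors in R 4.3.3, and the dispersion step was tested on simulated data. With 3 libraries, dispersions of single genes are drawn strongly towards the trend, so only their median is given, and it too reflects the trend. Other steps used Python 3.11.15 with matplotlib 3.10.9, scipy 1.17.1, pandas 2.3.3 and numpy 2.4.6. Coordinates are 1-based, from GENCODE M21. Genes named with values in every library were the 10 highest and 5 lowest detected members, all members of the 17 pairs, the 5 with the largest SD at a mean count of at least 100, the 5 with the largest non-coding share, Kdm6b, Hdac3, Dot1l, Nsd1, Setd2 and the 3 highest partners. Further genes and transcripts were chosen after their values were seen. The members, roles, pairs and lists were chosen with earlier results of these data known, although the symbol rule uses no measured value. Alternatives covered the quantification, pseudocount, filters, scaling and each replicate. Leaving out short transcripts, coding transcripts alone and shares of counts were added after seeing the data.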

Additional observations from a re-analysis of the deposited data

How the results depend on the processing

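The counts of detected members and of members at 1 TPM or more, the median coefficient of variation and the number of pairs with 1 direction stayed within 1.5 times of the values given under each alternative run. The median log2(TPM + 1) of the members, 4.90, was 5.36 in the read-based table, 5.32 there without transcripts under 200 bases, 4.86 with a pseudocount of 0.1 TPM, 4.999 at a mean count of at least 100 and 6.54 with TPM rescaled over genes with a protein-coding transcript. The last scaling gave 7.27, 6.57, 6.12 and 5.12 for methyltransferases, demethylases, acetyltransferases and deacetylases, and the read-based table gave 5.77, 5.20, 5.32 and 3.71. Deacetylases had 3.42 with a pseudocount of 0.1 TPM. Leaving out each replicate moved the median spread of 0.113 to between 0.0727 (without replicate 1) and 0.106. The number of members highest in replicate 1, 14, was 24 in the read-based table and 9 after rescaling. With 1 replicate left out it was 20 to 22, and the number highest in replicate 3, 15, was 22 to 31, since only 2 libraries then share the members. The median non-coding share of 46.4% was 60.9% in the read-based table and 20.4% of expected counts, and the 23 members over 50% became 13 by expected counts. Shares of expected counts were not computed for all genes. Kat2a minus Kat2b, -0.02, was 0.18 without replicate 1. In these pairs the sign reversed. Setd1a minus Setd1b was 0.12 in the read-based table, with or without short transcripts. Kdm3a minus Kdm3b was -0.85 in the read-based table, 0.53 there without transcripts under 200 bases and -1.17 in coding transcripts, and Hdac7 minus Hdac9 was -1.60 in coding transcripts. The cause was not tested, except that Kdm3b lost its read-based excess without its short transcript. Of the 54 member levels, 44 moved by more than their SD in the read-based table, 45 members being higher there. Members with few counts (Kdm4d, Hdac11, Kdm8) are limited by depth. No paired analysis was possible because the series holds a single group, so no groups share replicate numbers, and paralogs were compared within libraries.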
